A study of Rattus norvegicus with 6 samples.

Results

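The proteins of the mitochondrial ribosome are described here through 70 genes of the rat array whose names begin with Mrpl or Mrps followed by a number. They were found on 81 of 30367 non-control probes, and make up 70 of the 26276 gene names on the array. By what is known of the ribosome's structure, 44 of them encode proteins of the large subunit and 24 proteins of the small subunit. Mrps36 and Mrps21l were assigned to neither. Each gene stands for its brightest probe, and 69 of the 70 were tested.

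Hearts, labelled as whole heart, came from 3 animals given AACO and 3 control animals given water. AACO, a formula of Chinese medicine that the labels name only by these letters, was given every day at 0.386 µg/g for 8 weeks, while control animals received double-distilled water, and all were killed 24 h after the last dose. By the series text every animal, control animals included, had undergone TAC, in heart failure research the usual abbreviation of transverse aortic constriction. The series text speaks of mice, but the samples are labelled as rat and the probes carry positions on rat build rn4. No genotype, sex or age is given in the sources used here. The comparison asks which cardiac transcripts differ after treatment with the formula in a pressure overload model of heart failure.

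Mitochondria make the proteins encoded in their own DNA on ribosomes of their own. These ribosomes build core subunits of the respiratory chain and of ATP synthase, whereas every protein of the ribosome itself is encoded in the nucleus, made in the cytosol and imported. Some of these proteins have counterparts in the bacterial ribosome and others are found only in mitochondria. The heart depends on this machinery for its ATP supply, and inherited defects of several of its proteins cause cardiomyopathy in humans.

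Promoters of the family are shown first because many nuclear genes for mitochondrial proteins are known targets of the transcription factors NRF1, GABP (an ETS family factor) and YY1. RefSeq promoters of the rat assembly GRCr8, running from 250 bases before to 50 bases after a gene's start, were found for 56 of the 70 genes. Each was searched on both strands for short motifs. The NRF1 core was GCATGCG, which overlaps its own reverse complement. The ETS site was CCGGAAG. The YY1 site was ATGGCGG. The TATA box was TATAAA. Of the promoters of the 4 genes printed below, each 60 bases long and read along the gene's strand, capitals mark the NRF1 core on either strand. They lie at chr10:82522364-82522423 on the plus strand, chr1:169575720-169575779 on the minus strand, chr17:55260564-55260623 on the plus strand and chr9:88554893-88554952 on the plus strand, in the order shown.
Mrpl10: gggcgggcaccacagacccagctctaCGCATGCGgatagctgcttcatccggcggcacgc
Mrpl17: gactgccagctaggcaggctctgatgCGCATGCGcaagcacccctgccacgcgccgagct
Mrpl32: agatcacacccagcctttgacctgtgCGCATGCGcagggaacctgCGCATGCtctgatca
Mrpl44: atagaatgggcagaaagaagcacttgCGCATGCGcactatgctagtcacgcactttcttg

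At least 1 of the NRF1, ETS and YY1 motifs was found in 31 of the 56 promoters (55.4%), against 19.2% of 19005 promoters of protein-coding genes. The ETS site was found in 18 (32.1%, against 11.2%), the YY1 site in 13 (23.2%, against 6.39%) and the NRF1 core in 6 (of the 56, against 4.13% of all). The TATA box was found in 7 (12.5%, against 13.1%). Median GC content was 55.8% in the promoters of the family and 55.3% in all of them. These matches are a description of the letters in these windows.

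The probes are shown next because a value belongs to the probe and not to the whole gene. Of the 81 probes, 13 span more of the genome than their own length and so cross an intron. Among them are probes for Mrps23, Mrps5, Mrps9, Mrpl3 and Mrps36, and the dimmer probe for Mrpl10. On build rn4 they lie at chr10:76501513-76506765 (plus), chr3:115137158-115137609 (plus), chr9:42085479-42092439 (plus), chr8:110138311-110140337 (plus), chr2:31531272-31532310 (minus) and chr10:85768130-85768401 (plus), in the order shown. The dimmer probe for Mrpl2, at chr9:10019812-10019871 (plus), is added because it differed between the groups. Each is 60 bases long. The part of the gene that a probe lies in is not given by the files.
Mrps23: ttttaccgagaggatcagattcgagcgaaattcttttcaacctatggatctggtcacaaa
Mrps5: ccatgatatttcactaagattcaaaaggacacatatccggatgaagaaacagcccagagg
Mrps9: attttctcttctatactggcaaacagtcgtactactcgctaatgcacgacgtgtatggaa
Mrpl3: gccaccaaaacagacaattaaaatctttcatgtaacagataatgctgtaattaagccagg
Mrps36: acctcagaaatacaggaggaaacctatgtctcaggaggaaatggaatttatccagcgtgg
Mrpl10, dimmer probe: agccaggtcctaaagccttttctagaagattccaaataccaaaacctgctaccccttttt
Mrpl2, dimmer probe: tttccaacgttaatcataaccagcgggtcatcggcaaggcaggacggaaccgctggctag

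On the AACO arrays 70.9% to 72.4% of non-control spots were well above background, against 66.0% to 68.7% on the control arrays, and no non-control spot was saturated. The AACO arrays shared 1 slide and scan day and the control arrays shared a second slide and scan day. Slide, scan and group therefore cannot be told apart in these data. All 8 cardiomyocyte markers were well above background, none of them differed between the groups at the adjusted threshold, and 1 had an unadjusted p under 0.05. Of 6 macrophage markers tested, 5 fell under AACO. The summed level of the 6 was 3.19 to 3.47 on the AACO arrays and 4.34 to 4.78 on the control arrays. The 4 smooth muscle markers had a median log2 fold change of 0.59, and 3 were higher without overlap, against 17.3% of all genes. The 5 endothelial markers had a median of -0.37, and 4 were lower without overlap, against 20.1% of all genes. The remaining endothelial marker, Vwf, was at 0.07. None of these 9, and none of 5 fibroblast markers, passed the adjusted threshold of limma, while 2, 3 and 2 in that order had an unadjusted p under 0.05. Of genes listed as markers of other tissues, Fabp4, listed for fat cells, fell by 0.72 (adjusted p = 0.0392 by limma), while Adipoq was at 1.11 (adjusted p = 0.569). Such a listing does not show which cells gave the signal. Alas2 of red blood cells fell by 1.39 (adjusted p = 0.0236), while Hbb was at -0.01. Myh4 of skeletal muscle rose by 0.87 (adjusted p = 0.0206), but was well above background on 3 AACO arrays and 0 control arrays. Myh4 was thus kept only through the group where it was higher. The other skeletal muscle markers tested were not called, with Acta1 at -0.67, Tnnt3 at -0.04, Ckm at 0.02 and Mylpf at 0.08. The part of any of these cells in the values below was not tested. In whole tissue, fewer cells of a type and less RNA per cell cannot be told apart.

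The levels of mitochondrial ribosomal protein genes were close in AACO and control hearts. Levels are given as log2 of the processed signal minus the array's 75th percentile, so that a negative level is a signal below that percentile, and fold changes are AACO minus control. Of the 69 genes tested, 0 rose and 0 fell at an adjusted p under 0.05 by limma, whereas 10.9% of all 17515 genes tested did (4.97% higher and 5.94% lower). At an unadjusted p under 0.05, 5 of the 69 stood out (7.25%), against 30.4% of all genes. Of these, 2 were higher (14.3% of all genes were) and 3 lower (16.1%). The groups did not overlap for 10 of the 69 (14.5%), against 37.4% of all genes. AACO was the higher group for 6 of the 10 (17.3% of all genes) and the lower for 4 (20.1%). No gene of the family reached a 2-fold difference, against 6.29% of all genes. The median log2 fold change of the family was -0.03, beside -0.02 for all genes, and 30 of its 69 values were above 0 (43.5%, against 47.3% of all genes). The middle 50% of the family's values ran between -0.11 and 0.10.

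**Figure D1:**
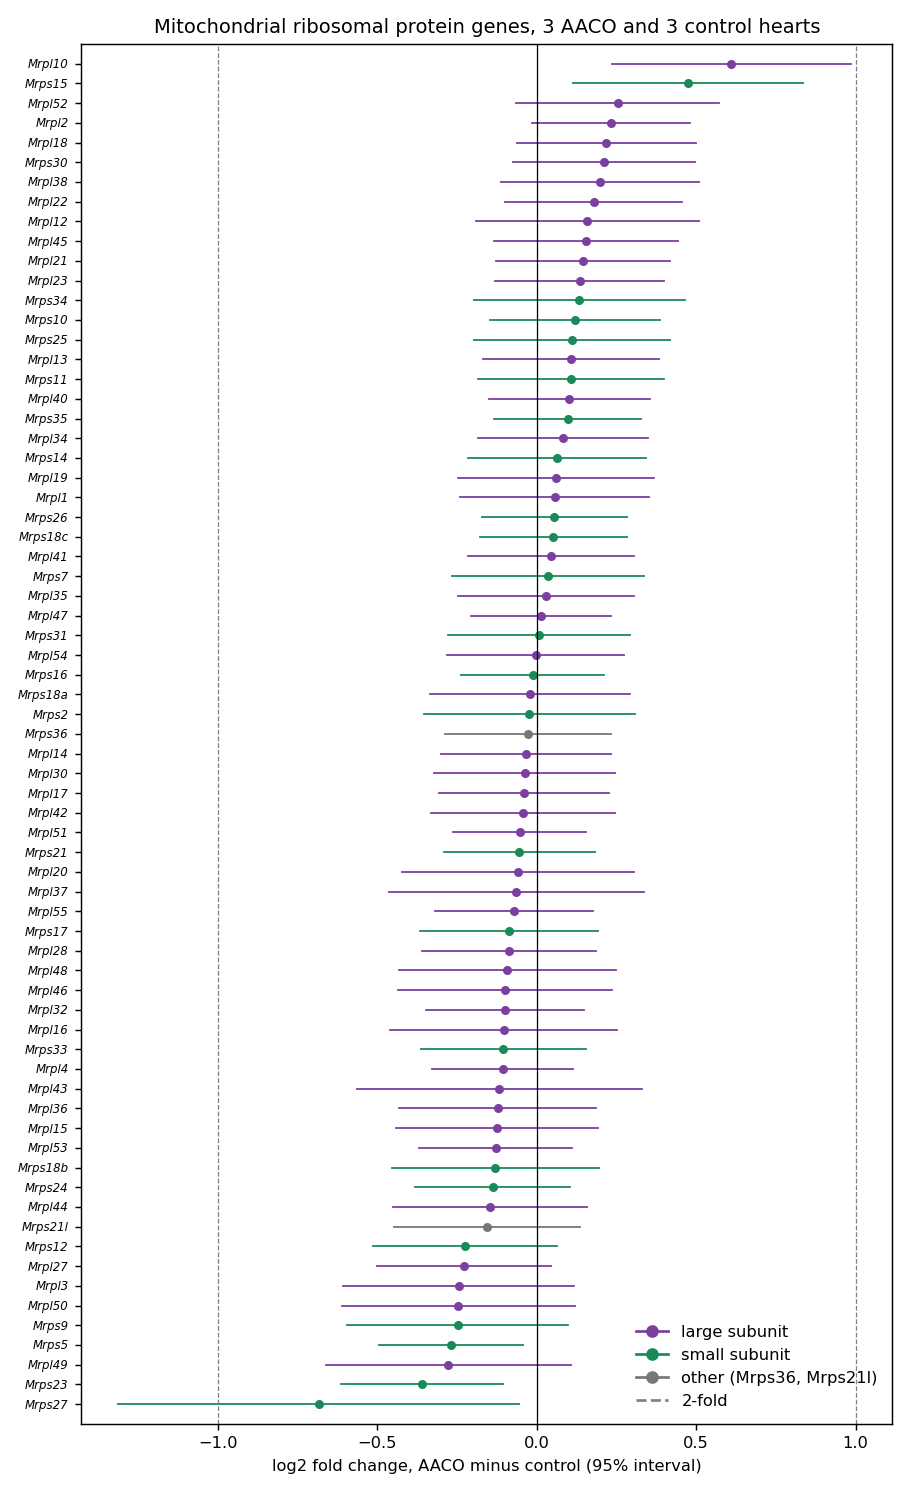
Log2 fold change of each of the 69 genes tested, AACO minus control, with limma's 95% interval as a bar (3 arrays per group) and dashed lines at 2-fold. Values run between -0.68 for Mrps27 and 0.61 for Mrpl10, and the interval of Mrps27 is the 1 that reaches past 2-fold.

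The intervals rest on the spread of arrays within each group. They do not cover a shift that comes from slide, scan or scaling. For 68 of the 69 genes (98.6%) the 95% interval of the fold change lay within 2-fold either way, and for 61 (88.4%) it lay within 1.5-fold. Over all genes tested the shares were 76.5% and 47.2%. In 2 sets compared below they were close to those of the family. They were 97.8% and 87.6% for cytoplasmic ribosomal protein genes and 95.2% and 89.2% for respiratory chain and ATP synthase genes. The median level was 3.01 for the family and -0.94 for all genes. The median standard error was 0.12 on the log2 scale for the family and 0.14 for all genes. The family was well above background on all 6 arrays for each of its 69 tested genes.

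Both subunits had medians near 0. The 44 large subunit genes had a median log2 fold change of -0.04, with 19 values above 0 and 25 below, and 1 unadjusted p under 0.05. The 23 small subunit genes tested had a median of -0.01, with 11 above 0 and 12 below, and 4 unadjusted p under 0.05. The 40 genes with bacterial counterparts had a median of -0.02 and the 27 found only in mitochondria a median of -0.04. None of these groups held a gene that passed the adjusted threshold.

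For comparison, 89 genes named Rpl or Rps with a number, called cytoplasmic ribosomal protein genes here, were tested. This name rule can also take in genes whose products are not ribosomal proteins. Of the 89, 0 rose and 0 fell, with 9 unadjusted p under 0.05 by limma (10.1%) and a median of 0.03. Among 83 genes of the respiratory chain and ATP synthase, which hold the nuclear-encoded partners of the proteins that mitochondrial ribosomes make, 2 rose and 0 fell, with a median of -0.00 and 4 unadjusted p under 0.05. The 2 were Ndufb4l1 and Cox6c-ps1, names of a like gene and a pseudogene, and were looked up after the values were seen.

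**Figure D2:**
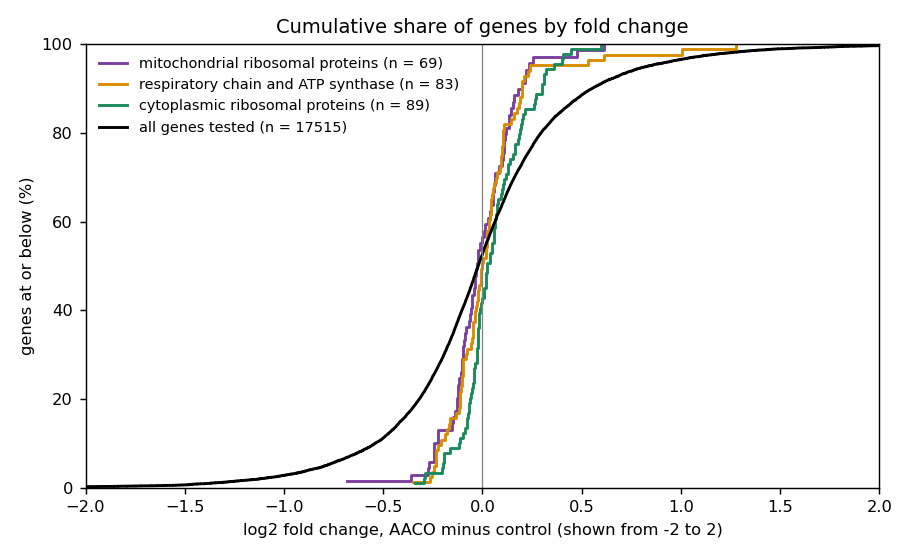
Cumulative share of genes (percent) by log2 fold change, AACO minus control, shown between -2 and 2, for 69 mitochondrial ribosomal protein genes, 83 respiratory chain and ATP synthase genes, 89 cytoplasmic ribosomal protein genes and all 17515 genes tested. The 3 lists climb more steeply around 0 than the line of all genes.

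Among large subunit genes, Mrpl10 had the smallest p. Its protein anchors the stalk of the large subunit, to which the Mrpl12 protein binds. By its brighter probe, Mrpl10 levels were 5.52, 5.64 and 5.41 in AACO hearts and 4.76, 5.22 and 4.76 in control hearts. The groups did not overlap, and the log2 fold change was 0.61 ± 0.16 (SE) with an adjusted p of 0.0550 by limma. The dimmer Mrpl10 probe went the other way, at -0.20, and which transcripts each probe reads was not tested. Mrpl12 levels were 6.06, 6.01 and 6.43 in AACO hearts and 5.90, 6.14 and 5.98 in control hearts, which overlap, and its log2 fold change was 0.16 (adjusted p = 0.492).

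Mrpl10 sat at the threshold, and its call turned with the processing. It was called higher in 6 of 19 alternative settings, among them normexp background correction (adjusted p = 0.0144), spike-in scaling (0.0436) and the fit without control replicate 2 (0.0294). The adjusted p ranged between 0.00175 without scaling and 0.509 with AACO replicate 3 alone against the control arrays, and the log2 fold change was positive in all 19. With both Mrpl10 probes averaged it was 0.21 (adjusted p = 0.232).

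Mrpl2 encodes the counterpart of bacterial L2, a protein near the catalytic centre. Its brighter probe read 3.42, 3.30 and 3.40 in AACO hearts and 3.24, 3.17 and 3.02 in control hearts. All AACO arrays were above all control arrays, and the log2 fold change was 0.23 ± 0.10 (SE; adjusted p = 0.186 by limma). Mrpl18 levels were 3.60, 3.59 and 3.76 in AACO hearts and 3.50, 3.53 and 3.26 in control hearts, again without overlap, at a log2 fold change of 0.22 (adjusted p = 0.253). Mrpl52, found only in mitochondria, had -0.61, -0.68 and -0.42 in AACO hearts and -1.01, -0.65 and -0.81 in control hearts, which overlap, for 0.25 (adjusted p = 0.244).

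A few names in the family mislead on position, since the products of Mrps30 and Mrps18a are proteins of the large subunit. Mrps30 levels were 3.65, 3.68 and 3.86 in AACO hearts and 3.40, 3.48 and 3.68 in control hearts, for a log2 fold change of 0.21 (adjusted p = 0.274 by limma). Mrpl45 encodes the protein at the tunnel exit that holds the ribosome to the inner membrane. Its levels were 4.14, 3.99 and 4.31 in AACO hearts and 3.90, 4.09 and 3.97 in control hearts, for 0.15 (adjusted p = 0.421).

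Below 0 among large subunit genes stood Mrpl49, with levels of 0.98, 1.02 and 1.50 in AACO hearts and 1.44, 1.53 and 1.36 in control hearts. AACO replicates 1 and 2 were below every control array and replicate 3 was not, and the log2 fold change was -0.28 ± 0.16 (SE; adjusted p = 0.288 by limma). Mrpl50, also found only in mitochondria, had 1.47, 1.90 and 1.95 in AACO hearts and 2.05, 2.08 and 1.92 in control hearts by its brighter probe, for -0.25 (adjusted p = 0.318).

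Mrpl3 and Mrpl44 are genes whose inherited defects cause hypertrophic cardiomyopathy in humans. Mrpl3 levels were 1.30, 1.71 and 1.79 in AACO hearts and 1.88, 1.77 and 1.89 in control hearts, for a log2 fold change of -0.24 (adjusted p = 0.316 by limma). Mrpl44 levels were 2.82, 2.88 and 3.13 in AACO hearts and 3.24, 3.01 and 3.02 in control hearts, for -0.15 (adjusted p = 0.470). In both genes the groups overlapped. Mrps22, another such gene, was on the array under the name LOC683519, outside the name rule of the family. That probe read 0.65, 0.39 and 0.59 in AACO hearts and 1.03, 0.67 and 0.78 in control hearts. Its groups did not overlap, and the log2 fold change was -0.29 (adjusted p = 0.208).

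Large subunit genes chosen for the strength or weakness of their signal stayed near 0. The log2 fold change was -0.09 for Mrpl28, 0.01 for Mrpl47 and -0.12 for Mrpl43, and the limma adjusted p of each was above 0.6. Mrpl38 and Mrpl22, looked up after the values were seen because their groups did not overlap, were at 0.20 and 0.18. Likewise looked up, Mrpl27 and Mrpl51 were at -0.23 and -0.05.

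Of the small subunit genes, Mrps23 had the smallest p. Its protein is found only in mitochondria. Mrps23 levels were 2.61, 2.65 and 2.87 in AACO hearts and 3.08, 3.04 and 3.09 in control hearts. The control values lay close together and all AACO values below them, with a log2 fold change of -0.36 ± 0.11 (SE; adjusted p = 0.0776 by limma). Without AACO replicate 3 the value was -0.44 (adjusted p = 0.0438), which passes the threshold.

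Mrps15, the counterpart of bacterial S15, had levels of 0.58, 0.54 and 0.85 in AACO hearts and -0.05, 0.36 and 0.23 in control hearts. The groups did not overlap, for a log2 fold change of 0.47 ± 0.15 (SE; adjusted p = 0.0907 by limma). These levels rest on 1 probe, and which transcripts it reads was not tested. Mrps5, whose bacterial counterpart takes part in decoding accuracy, had -0.16, -0.04 and 0.01 in AACO hearts and 0.17, 0.24 and 0.20 in control hearts, again without overlap. Its log2 fold change was -0.27 ± 0.09 (SE; adjusted p = 0.115).

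Mrps27 had the largest fold change of the family and the widest interval. Its levels were -2.10, -1.54 and -1.18 in AACO hearts and -1.19, -0.64 and -0.94 in control hearts. AACO replicate 3 reached into the control range, and the log2 fold change was -0.68 ± 0.26 (SE; 95% interval -1.31 to -0.05; adjusted p = 0.138 by limma). Mrps9 had 1.86, 2.07 and 2.30 in AACO hearts and 2.36, 2.44 and 2.17 in control hearts, for -0.25 (adjusted p = 0.293).

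Mrps12, the counterpart of the bacterial decoding protein S12, had 3.42, 3.36 and 3.71 in AACO hearts and 3.71, 3.76 and 3.70 in control hearts, for a log2 fold change of -0.23 (adjusted p = 0.253 by limma). Mrps16 and Mrps10, named for the strength and weakness of their signal, were at -0.01 and 0.12. Mrps28 was not tested, because its probe was not well above background on any of the 6 arrays.

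Mrps36 carries the family's name, but its product, now named Kgd4, belongs to the α-ketoglutarate dehydrogenase complex and not to the ribosome. Its levels were 4.68, 4.53 and 4.73 in AACO hearts and 4.77, 4.70 and 4.55 in control hearts, which overlap. The log2 fold change was -0.03 (adjusted p = 0.887 by limma).

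**Figure D3:**
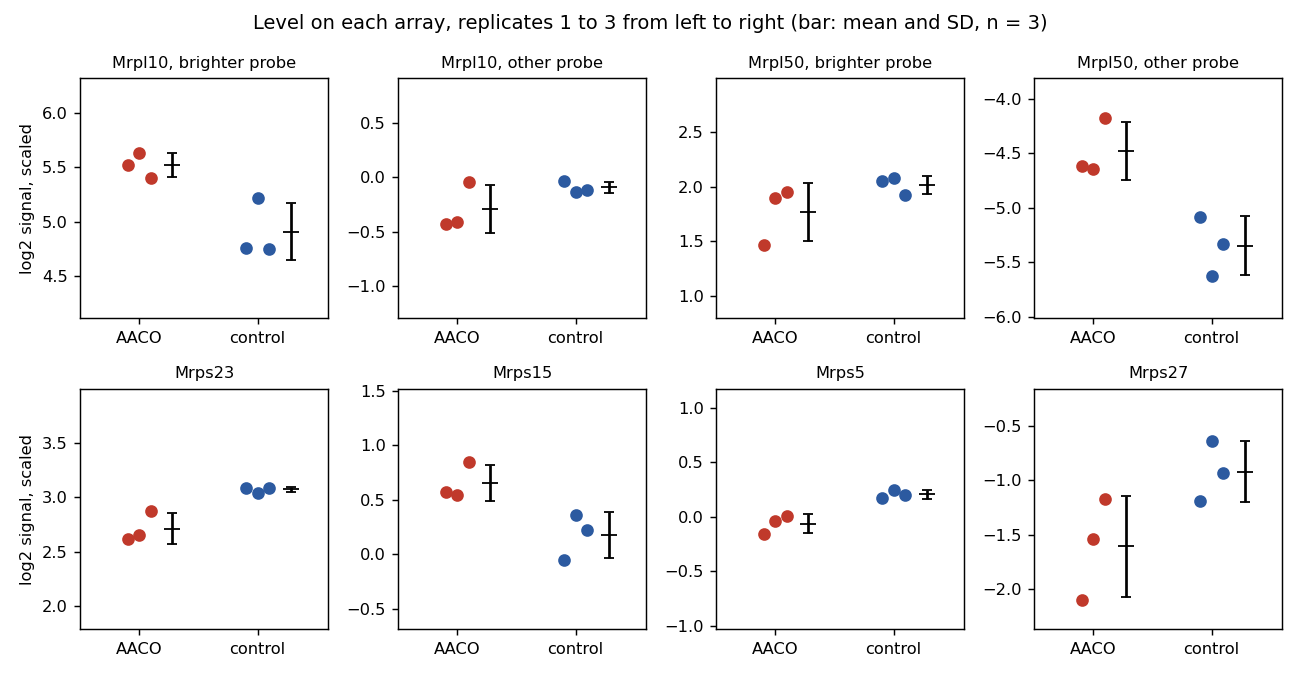
Level on each array (log2 signal, scaled) in AACO and control hearts for Mrpl10 and Mrpl50 by each of 2 probes and for Mrps23, Mrps15, Mrps5 and Mrps27, with the mean and SD of 3 arrays beside the points. Panels cover the same height on different ranges, so that distances can be compared but levels of different probes cannot. The AACO points of Mrpl10 lie above the control points for the brighter probe and not for the other.

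Probes of the same gene did not always move together. Of 11 genes with 2 probes, 10 had both probes tested, and in 7 of these the probes had fold changes of opposite sign. Some of these signs belong to values near 0, as in Mrpl41 (0.04 and -0.02) and Mrps16 (-0.01 and 0.08). Over the 10 genes the median gap was 0.21 on the log2 scale, and it was over 0.3 in 2, Mrpl10 and Mrpl50. In a fit over 20112 single probes, 2 of 79 probes of the family rose and 0 fell, against 10.8% of all probes that differed and 4.96% that rose. Both were the dimmer probe of their gene, so neither entered the counts of genes above. The probes of Mrpl41 share a run of 31 bases, and no probe of the family shares a run of 20 bases with a probe of another gene. That search covered only exact runs among the probes of this array. Matches to other transcripts or to repeats of the genome were not searched, so whether a probe reads only its gene was not tested.

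The dimmer Mrpl2 probe, printed above, read 2.73, 2.64 and 2.69 in AACO hearts and 2.32, 2.22 and 2.04 in control hearts. It rose by 0.49 ± 0.11 (SE; adjusted p = 0.0384 by limma over single probes), in the direction of the brighter probe at 0.23. The dimmer Mrpl50 probe rose by 0.87 ± 0.19 (SE; adjusted p = 0.0389), opposite to the brighter one at -0.25. Its raw signals were low, at 46.3, 57.6 and 77.1 in AACO hearts and 32.9, 15.6 and 21.2 in control hearts. The dimmer Mrpl10 probe, which crosses an intron, was at -0.20 (adjusted p = 0.352), opposite to the brighter one. It read -0.42, -0.41 and -0.04 in AACO hearts and -0.03, -0.13 and -0.11 in control hearts, far below the brighter probe.

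AACO replicate 3 stood apart from the other AACO arrays across the family. It was the highest of the 3 AACO arrays for 59 of the 69 genes (85.5%), as it was for 68.7% of respiratory chain genes, 14.6% of cytoplasmic ribosome genes and 39.3% of all genes. The median deviation of the family from the control mean was -0.09, -0.08 and 0.11 on the AACO arrays. It was 0.03, 0.05 and -0.05 on the control arrays, which themselves make up that mean. The median over all genes lay between -0.04 and 0.02 on every array.

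The levels of Myl7 and Sln, 2 of the 4 atrial markers, moved with this pattern. Myl7, the atrial myosin light chain, had levels of 5.41, 6.85 and -0.44 in AACO hearts and -1.66, -2.26 and -0.85 in control hearts. Sln, which encodes the atrial calcium pump regulator sarcolipin, had 1.97, 4.43 and 0.21 in AACO hearts and -1.05, 0.23 and 0.07 in control hearts. Both were thus high in AACO replicates 1 and 2 and not in replicate 3. The other atrial markers did not share it. Nppa had 3.38, 6.07 and 6.48 in AACO hearts and 5.61, 5.91 and 7.64 in control hearts, and Myl4 was between 7.29 and 7.60 on all arrays. The summed level of the 4 markers was 7.83 to 8.52 in AACO hearts and 7.83 to 8.48 in control hearts. This sum adds unlogged levels and so is led by the markers of highest level. It does not measure the share of atrial tissue.

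With the level of Myl7 and Sln as a covariate the median log2 fold change of the family was 0.13, with 58 of the 69 values above 0, beside 0.01 for all genes. The covariate was high only on AACO replicates 1 and 2 and so is tied to the group. This fit therefore leans on AACO replicate 3 and is not separate from the next one. AACO replicate 3 alone against the control arrays gave a median of 0.11, with 54 of the 69 above 0, beside -0.00 for all genes. Without AACO replicate 3 the median was -0.09, with 24 of the 69 above 0. The sign of the family's median thus turned with the array that was left out, and its part that comes from atrial tissue was not tested. In the covariate fit 0 genes of the family passed the adjusted threshold of limma and 4 had an unadjusted p under 0.05. With AACO replicate 3 alone these counts were 0 and 2.

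**Figure D4:**
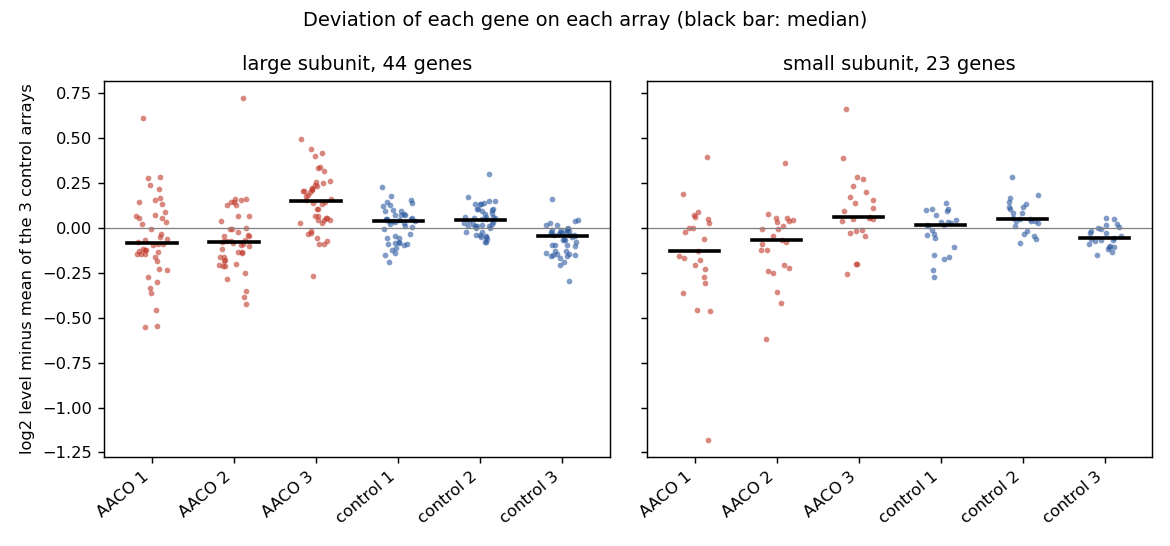
Log2 level of each gene on each array minus its mean over the 3 control arrays, for 44 large and 23 small subunit genes, with the median as a black bar. On AACO replicate 3 the medians are 0.15 and 0.06, while AACO replicates 1 and 2 have medians below 0 in both subunits.

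Other genes of mitochondrial gene expression were described from 7 lists holding 108 tested genes, of which 2 rose and 2 fell at the adjusted threshold, where 4.97% of all genes rose and 5.94% fell. Of the 108, 19 had an unadjusted p under 0.05 by limma, against 30.4% of all genes. Ribosomal proteins under other names, 7 genes, had 0 that rose or fell and 0 with an unadjusted p under 0.05 by limma. Among them Ict1, now Mrpl58, a release factor built into the large subunit, was at 0.24 (adjusted p = 0.178), and Gadd45gip1, now counted as a large subunit protein, was at 0.18 (adjusted p = 0.385).

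Of 13 translation factors 0 rose or fell, and 0 had an unadjusted p under 0.05 by limma. Tufm, the elongation factor that brings aminoacyl-tRNA to the ribosome, had levels of 5.52, 5.48 and 5.99 in AACO hearts and 6.01, 6.06 and 5.97 in control hearts. AACO replicates 1 and 2 were below all control arrays, replicate 3 was not, and the log2 fold change was -0.35 (adjusted p = 0.190). Without AACO replicate 3 it was -0.51 (adjusted p = 0.0343), which passes the threshold. The release factor gene Mtrf1l was at 0.26 (adjusted p = 0.171).

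Of 17 genes for mitochondrial aminoacyl-tRNA synthetases and the related amidotransferase, 1 rose and 0 fell, and 4 had an unadjusted p under 0.05. Pars2, the prolyl-tRNA synthetase, had levels of 0.27, 0.19 and 0.45 in AACO hearts and -0.06, -0.18 and -0.19 in control hearts. It rose by 0.45 ± 0.11 (SE; adjusted p = 0.0494 by limma), and the call was lost without any 1 of the 6 arrays (adjusted p 0.0722 to 0.135). Ears2, the glutamyl-tRNA synthetase, was at -0.46 (adjusted p = 0.0511).

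Of 26 ribosome assembly factors 1 rose and 0 fell, and 7 had an unadjusted p under 0.05. Ftsj2, now Mrm2, a methyltransferase of the large ribosomal RNA, had 0.11, -0.35 and -0.08 in AACO hearts and -0.80, -0.72 and -0.58 in control hearts. It rose by 0.60 ± 0.14 (SE; adjusted p = 0.0486 by limma), again a call lost without any 1 array (adjusted p 0.0686 to 0.134). Nsun4, a methyltransferase of the small ribosomal RNA that also joins the subunits in assembly, was at 0.35 (adjusted p = 0.0754).

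Of 13 genes of mitochondrial DNA upkeep and transcription 0 rose and 1 fell, and 3 had an unadjusted p under 0.05. Top1mt, the mitochondrial topoisomerase, had -0.09, -0.22 and -0.12 in AACO hearts and 0.32, 0.31 and 0.31 in control hearts. It fell by 0.45 on the log2 scale (SE 0.09; adjusted p = 0.0301 by limma), and the call remained without AACO replicate 3 and was lost without any other single array (adjusted p up to 0.110). Tfb2m, a transcription initiation factor, was at -0.38 (adjusted p = 0.0860), and Tfam, which packs mitochondrial DNA and was looked up after the values were seen, was at -0.02.

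Of 21 genes that process mitochondrial RNA 0 rose or fell, and 2 had an unadjusted p under 0.05 by limma. They were Gtpbp3, which modifies tRNA, at 0.41 (adjusted p = 0.0566) and Fastkd3 at 0.33 (adjusted p = 0.0699).

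Of 11 regulators of mitochondrial biogenesis 0 rose and 1 fell, and 3 had an unadjusted p under 0.05. Myc, a transcription factor that acts on ribosome and mitochondrial genes among many others, had -1.96, -1.52 and -1.56 in AACO hearts and -0.25, 0.62 and 0.22 in control hearts. It fell by 1.87 on the log2 scale (SE 0.24; adjusted p = 0.0108 by limma), a call kept without each array in turn. The coactivator gene Pprc1 was at -0.43 (adjusted p = 0.0694). Ppargc1b, another coactivator gene, looked up after the values were seen, was at 0.49 (adjusted p = 0.0794). Genes for regulators tied to the promoter motifs above were looked up after the values were seen, with log2 fold changes of -0.17 for Nrf1, 0.03 for Gabpa and -0.15 for Yy1, and Ppargc1a, the coactivator PGC-1α, was at -0.10.

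**Figure D5:**
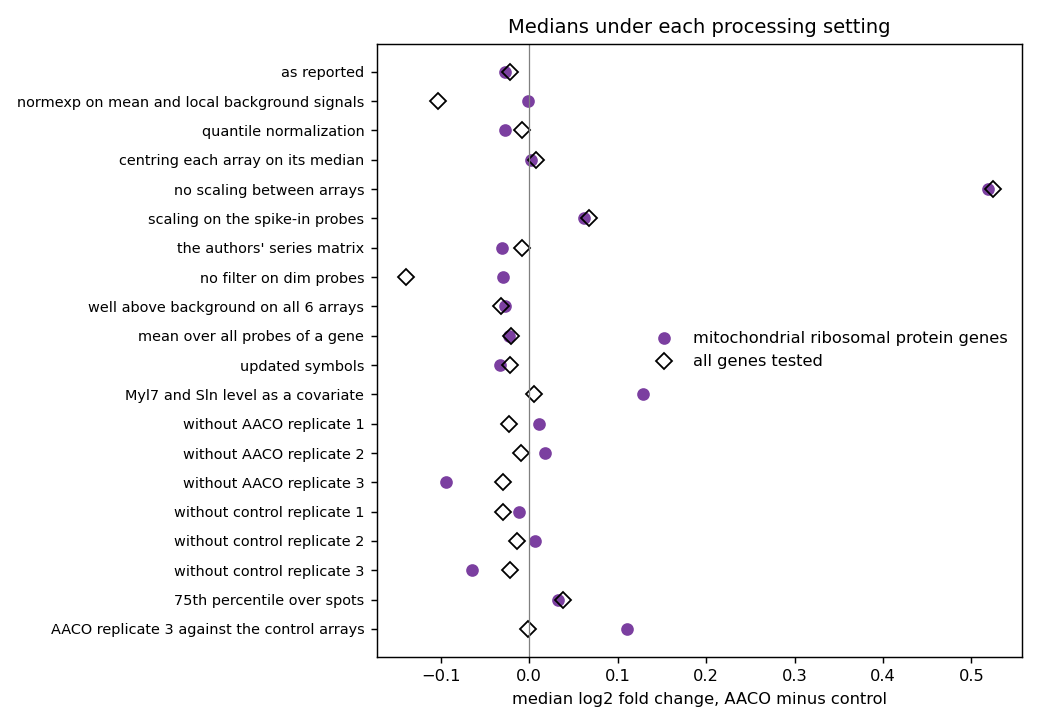
Median log2 fold change, AACO minus control, of the mitochondrial ribosomal protein genes (filled) and of all genes tested (open) under each processing setting. Both medians move together when each array is shifted as a whole, up to 0.52 without scaling, and part by over 0.1 with normexp, with no filter on dim probes, with the Myl7 and Sln covariate and with AACO replicate 3 alone.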

How the data were processed

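Per the file headers, Agilent Feature Extraction 10.7.1.1 read the 6 one-colour Cy3 arrays. The deposited intensity is the processed signal, corrected for background. The authors also deposited a series matrix of log2 values, whose columns correlated with log2 of the intensity at r of 0.998 or more and shared a median of 6.79, so only the exact normalization stayed unknown. Outlier and control spots were left out, spots of a probe were averaged, and log2 values were scaled by each array's 75th percentile over non-control probes. Probes well above background on at least 3 arrays were kept (20112 of 30357 with a value on every array), and a gene was its brightest probe. The groups were compared by two-sided tests of limma 3.58.1 in R 4.3.3 (lmFit and eBayes), adjusted by Benjamini-Hochberg over the 17515 genes tested. The series text speaks of different donors for each experiment, but the replicate numbers are only names in deposit order and pair nothing, and a p-value reflects only how these 6 samples spread, which may be technical. The number of arrays limits the precision.

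Genes named were those called, the 6 highest and 6 lowest fold changes, the 3 strongest and 3 weakest signals, any gene whose 2 probes moved in opposite directions by over 0.3 each (none did), 7 genes for their known roles, the gene not tested and, per list, the 2 of smallest p. Others were named after their values were seen. The members, lists, naming rule and tests were chosen with earlier results of these data known. Accessions matched the RefSeq gene table for 75 of the 81 probes.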

Additional observations from a re-analysis of the deposited data

How the results depend on the processing

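Settings changed the background correction, scaling, filter, probe choice, gene names, covariate and arrays. The 75th percentile over spots and AACO replicate 3 alone were added after the data were seen. The count of family genes that rose was 0 as reported, 1 with normexp, spike-in scaling, the filter on all 6 arrays and the percentile over spots (Mrpl10 in each) and 12 without scaling, where the median of all genes was itself at 0.52 and that of the family at 0.52. Leaving out 1 array gave 0 to 1 that rose (Mrpl10, without control replicate 2), 0 to 1 that fell (Mrps23, without AACO replicate 3) and a median of -0.09 to 0.02. With no filter on dim probes 1 fell, Mrps28, which was not well above background on any array. The median moved to 0.13 with the Myl7 and Sln covariate and to 0.11 with AACO replicate 3 alone, a fit that takes the spread of the control arrays for the lone array, and lay between -0.03 and 0.06 under the remaining settings that kept all 6 arrays and scaled them. Top1mt reversed without scaling, to 0.094 (adjusted p = 0.772 by limma). Over all genes, 871 rose and 1040 fell as reported, against 774 and 2016 with normexp, 891 and 2975 with no filter, 1101 and 864 with the percentile over spots, 1092 and 544 with spike-in scaling and 5487 and 232 without scaling. Without single arrays they were 104 to 950 and 189 to 1217, and 0 and 0 with the covariate and with AACO replicate 3 alone. Of 57 alternative values of the 3 results on the family, 46 kept their side of the threshold or stayed within the replicate spread. The causes were not tested. No paired analysis was possible because the replicate numbers are given in deposit order and the sample titles share none between the groups.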
